A study of Mus musculus with 7 samples.

Results

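The 42 genes described here are the DNA replication and S phase genes of a table of 15815 mouse genes. They were chosen by name from what their products do, with earlier results of these data known. All 42 symbols were found in the table. They comprise 4 licensing genes, the 6 genes of the MCM2-7 helicase, 6 genes that activate the helicase, 8 polymerase and primase genes, 6 genes of the sliding clamp and its loader, 2 genes that join Okazaki fragments, 4 genes of nucleotide supply, 3 chromatin genes and 3 genes of the switch into S phase. They were measured in Treg cells (regulatory T cells), which hold other immune cells in check and are defined by the transcription factor Foxp3. The KO group (n = 3 libraries) was Hpgd-deficient Treg cells, and the WT group (n = 4 libraries) was Treg cells labelled WT. Hpgd encodes the enzyme that breaks down prostaglandin E2. Both groups were YFP+ cells sorted from the mesenteric lymph nodes of Rag-/- mice, 8 weeks after the YFP+ cells had been transferred into these hosts alongside naive T cells and further Treg cells, all WT. Rag-/- hosts make no T or B cells of their own and keep their other blood cells and their stroma. The strain was C57BL/6JRcc, and the labels give the line as Hpgd fl; Foxp3-YFP-Cre for all 7 libraries, so that which alleles the WT cells carried is not stated beyond the name WT. Cre and YFP are driven by Foxp3, and so deletion and sorting both rest on that promoter. Whether the libraries stem from different hosts is not stated, and p-values therefore cover only the spread between libraries, which may be partly technical. The comparison of KO with WT asks whether loss of Hpgd in transferred Treg cells went with other levels of the transcripts of DNA replication.

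Before S phase, the origin recognition complex with Cdc6 and Cdt1 loads the MCM2-7 helicase onto DNA, and Cdc45 and the GINS complex then turn it into a working motor. Primase and DNA polymerase alpha lay the primers, polymerases delta and epsilon extend them on the Pcna clamp, and Fen1 and Lig1 join the fragments of the lagging strand. Many of these genes are switched on together by E2F transcription factors when a resting T cell enters the cell cycle, and so their transcripts are commonly read as a sign of proliferation.

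The promoters of these genes were searched for the E2F element. Because many of these genes are known to be switched on by E2F, a match is no independent check of the list. The RefSeq promoter table of GRCm38.p6, with 250 bases before and 50 after each start, held a window for 34 of the 42 genes. The E2F motif was searched on both strands as TTTCCCGC, TTTCGCGC, TTTGCCGC and TTTGGCGC. It was found in 14 of the 34 genes (41.2%), against 4.66% of the 9062 tested genes with a window and 2.60% of all 27025 genes of the promoter table. By role it was in 4 of 5 MCM2-7 genes, in 3 of 4 licensing genes, in 3 of 6 polymerase genes and in 0 of 4 genes of nucleotide supply. The CCAAT box, searched on both strands as CCAAT, was in 20 of the 34 genes (58.8%), against 43.2% of the tested genes. In 1 of the windows an E2F and a CCAAT match overlapped. Of the 20 E2F matches, 12 lay before the start and 8 after it. Stretches of 4 promoters are printed because they span the range from 3 matches to none. Capitals mark the E2F matches, which overlap in Mcm6 and in Mcm5, and each line runs 5′ to 3′ on the gene's strand. The stretches lie at chr1:128359706-128359905 on the minus strand (Mcm6), chr8:75109309-75109508 on the plus strand (Mcm5), chrX:93632156-93632355 on the minus strand (Pola1) and chr10:128015015-128015167 on the plus strand (Prim1).
Mcm6: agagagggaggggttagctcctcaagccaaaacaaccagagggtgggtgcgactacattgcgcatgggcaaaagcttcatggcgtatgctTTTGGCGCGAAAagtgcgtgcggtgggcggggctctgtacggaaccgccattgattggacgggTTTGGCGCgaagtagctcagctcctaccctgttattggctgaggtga
Mcm5: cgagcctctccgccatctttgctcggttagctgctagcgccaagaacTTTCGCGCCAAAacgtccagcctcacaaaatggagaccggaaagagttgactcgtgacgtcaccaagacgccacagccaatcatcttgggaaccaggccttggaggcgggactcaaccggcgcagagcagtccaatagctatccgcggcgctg
Pola1: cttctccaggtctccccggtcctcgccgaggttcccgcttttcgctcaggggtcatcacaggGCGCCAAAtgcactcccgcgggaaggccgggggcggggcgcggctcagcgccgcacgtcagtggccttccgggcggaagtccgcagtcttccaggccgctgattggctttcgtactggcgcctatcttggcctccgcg
Prim1: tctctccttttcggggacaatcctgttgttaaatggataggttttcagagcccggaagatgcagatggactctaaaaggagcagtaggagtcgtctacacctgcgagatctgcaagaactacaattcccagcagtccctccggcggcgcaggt
The Prim1 stretch is shorter because it stops before the earliest annotated start, and no match was found in the whole window of 300 bases either. Pold3 had 1 match, TTTCCCGC, 18 bases after its start. A match describes these letters only and does not show that a factor binds there.

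Every gene had at least 1 read in each library, and all 42 passed the filter of a mean normalized count of at least 10. Recovered reads per library were between 4135733 and 9501939 in KO and between 6129064 and 10622507 in WT, with KO 3 the shallowest. Hpgd itself had normalized counts of 0.759, 2.42 and 5.52 in KO, against 18.7, 9.96, 10.2 and 13.4 in WT, so the groups did not overlap and no library went against its label. That check rests on 7 reads in all of KO and 56 in all of WT, and values for the whole gene do not show whether the floxed part was lost. Foxp3 averaged 124 ± 17.5 normalized counts in KO and 107 ± 42.7 in WT (SD, n = 3 and 4). The libraries KO 3 and WT 2 stood apart: their median distances to the other libraries were 1.08 and 1.07 log2 units, against 0.783 to 0.891 for the remaining libraries. WT 2 also had 7.57% of its counts in 82 ribosomal protein genes, against 4.38 to 5.52% in the others, and its tested genes leaned towards short transcripts. Short genes (exon length up to 2535 bases) lay at a median of 0.30 log2 units above their median of the 7 libraries in WT 2, and long ones (over 4365 bases) at -0.29. Of the 42 fold changes described here, 11 turned sign without KO 3, 9 without WT 2 and 16 without both. For some printed estimates, but not for all that moved, a value with libraries left out follows.

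None of the 42 genes differed between KO and WT Treg cells in the test across all genes, and neither did any other gene (0 of 11787 tested, 0.0%, limma on log2 normalized counts, Benjamini-Hochberg adjusted p under 0.05). The adjusted p was 1.00 for every one of the 42, and the lowest it reached under any of 18 alternative settings was 0.921. An unadjusted p under 0.05 was found for Prim1, lower in KO, and Pold3, higher in KO, which makes 2 of 42 beside 1.79% of all tested genes. Voom on recovered reads also passed 0 genes and gave an unadjusted p under 0.05 for 2 of the 42, beside 1.56% of all tested genes. KO and WT values did not overlap for 1 gene that was higher in KO (beside 1.71% of all tested genes) and 1 that was lower (beside 1.93%). These were Pold3 and Prim1, 2 of the 42, beside 3.65% of all tested genes in either direction. Fold changes were above 0 for 26 genes and below 0 for 16 (61.9% above 0, beside 51.8% of all tested genes). Their median log2 fold change was 0.08, beside 0.01 for all tested genes, and their range was -1.63 to 1.51. An absolute log2 fold change above 1 was found for 3 of the 42, Orc1, Gins1 and Prim1, beside 5.07% of all tested genes, and in each of these at least 1 library held 5 reads or fewer.

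**Figure D1:**
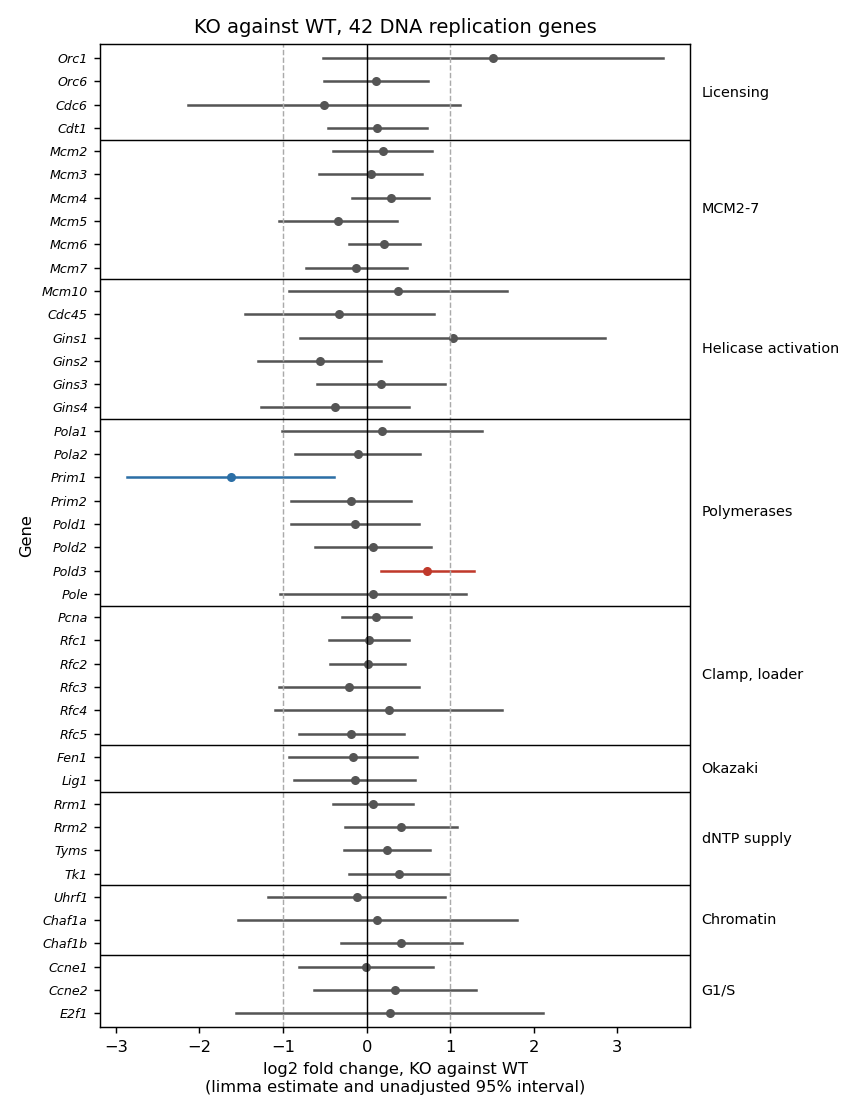
Log2 fold change of KO against WT for each of the 42 genes (x axis, limma estimate with its unadjusted 95% interval), grouped by role down the page. The intervals of Prim1 (-2.86 to -0.39, blue) and Pold3 (0.17 to 1.28, red) leave out 0, and the dashed lines at -1 and 1 hold the whole interval of 22 genes.

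These data bound a change more closely for some genes than for others. The plot of fold changes shows that 95% intervals lay within 1 log2 unit of 0 for 22 of the 42 genes (52.4%), beside 56.4% of all tested genes. The median width of the interval to either side was 0.73 log2 units, beside 0.67 for all tested genes. The narrowest intervals belonged to the most abundant transcripts, such as Pcna (-0.30 to 0.53) and Mcm6 (-0.21 to 0.64). The mean log2 level of the 42 genes was 7.29, 7.27 and 7.08 in KO, against 7.08, 7.41, 6.99 and 7.11 in WT. All KO libraries lay inside the WT range, and the group means were 7.21 ± 0.12 in KO and 7.15 ± 0.18 in WT (SD, n = 3 and 4). Their difference was 0.06 log2 units, and 0.15 without WT 2. As a share of all normalized counts, the 42 genes together took 0.15, 0.158 and 0.154% in KO and 0.143, 0.169, 0.137 and 0.136% in WT. In bulk RNA, fewer cells in S phase and less of each transcript per cell cannot be told apart.

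**Figure D2:**
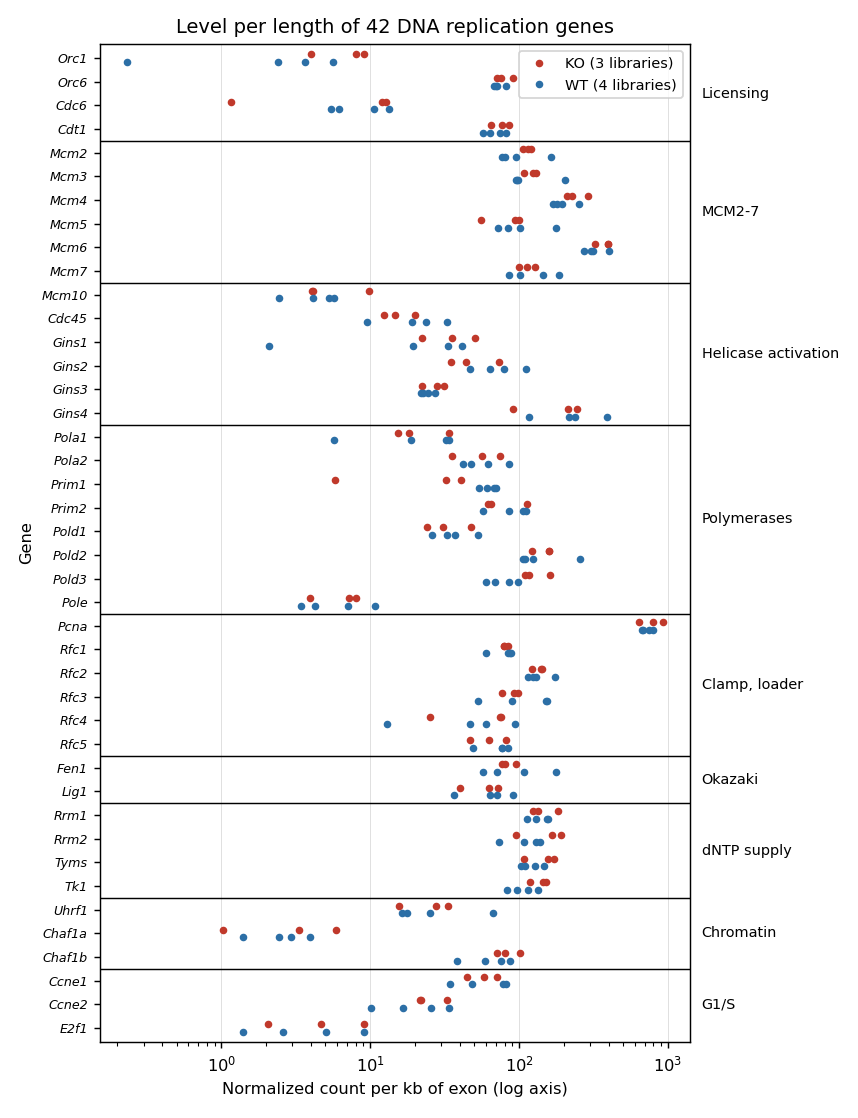
Normalized count per kb of exon (x axis, log axis) of each of the 42 genes in each library, KO in red above WT in blue, grouped by role down the page. Pcna stands highest, and Orc1, Cdc6, Pole, Chaf1a and E2f1 lie near the low end in both groups.

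Levels per length differed widely between the genes, as the plot of normalized counts per kb shows. Pcna, the ring that holds polymerases on DNA, was the highest, with 789 ± 142 normalized counts per kb in KO and 722 ± 57.5 in WT. Mcm6 followed with 374 ± 41.8 in KO and 324 ± 56.8 in WT. The 6 MCM2-7 subunits, which assemble one to one, did not have equal levels per kb. Mcm4 had 243 ± 43.5 in KO and 199 ± 36.8 in WT. The other 4 subunits ran from 83.2 (Mcm5) to 121 (Mcm3) in KO and from 104 (Mcm2) to 129.6 (Mcm7) in WT, and among these neighbours the order did not hold beyond their spread. At the low end were Chaf1a (3.41 in KO, 2.68 in WT), a subunit of the histone chaperone CAF-1, and Orc1 (7.07 in KO, 2.98 in WT).

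The licensing genes mark origins and load the helicase. Orc1, the ATPase subunit of the origin recognition complex that is made in G1 phase, had normalized counts of 12.1, 24.2 and 27.6 in KO, against 11.0, 7.24, 17.0 and 0.703 in WT. KO 2 and KO 3 exceeded every WT library, but KO 1 fell within the WT range, and the reads behind these values were 16, 30 and 15 in KO and 10, 8, 15 and 1 in WT. The log2 fold change was 1.51 (SE 0.94, 95% interval -0.52 to 3.55, exact permutation p = 0.114), and it was 0.81 without WT 4, the library with 1 read. Orc6, a small subunit of the same complex, had the highest level of the group per kb and hardly varied, with 114, 121 and 145 normalized counts in KO and 109, 111, 114 and 131 in WT (log2 fold change 0.12, SE 0.29). Cdt1, which brings the helicase to the origin, averaged 166 ± 23.3 in KO and 152 ± 23.9 in WT. Cdc6, the other loader, averaged 41.5 ± 31.2 in KO and 42.6 ± 18.0 in WT, and its KO 3 value of 5.52 rests on 3 reads (log2 fold change -0.51, and 0.57 without KO 3).

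The MCM2-7 genes encode the helicase that unwinds the fork. Mcm4 had 813, 753 and 1048 normalized counts in KO, against 644, 905, 612 and 700.1 in WT. All 3 KO libraries lay above 3 of the 4 WT libraries, and WT 2 lay above KO 1 and KO 2. The log2 fold change was 0.29 (SE 0.21, 95% interval -0.17 to 0.75). Mcm6 had 1423, 1734 and 1745 in KO, against 1381, 1773, 1194 and 1328 in WT, with WT 2 above all KO libraries and the other WT libraries below them (log2 fold change 0.21, SE 0.20). The other 4 subunits had fold changes from -0.34 (Mcm5, 288 ± 82.4 in KO and 376 ± 165 in WT, but 0.19 without both WT 2 and KO 3) to 0.19 (Mcm2, 383 ± 23.5 in KO and 352 ± 137 in WT). Without both of these libraries Mcm2 had 0.48. Mcm4 was highest in KO 3, and the other 5 of the 6 genes were highest in WT 2. The mean log2 level of the 6 genes was 8.96, 9.06 and 9.0 in KO and 8.87, 9.56, 8.66 and 8.75 in WT. With WT 2 the group means were 9.01 ± 0.05 in KO and 8.96 ± 0.41 in WT (SD, n = 3 and 4). Without WT 2 the WT mean was 8.76, every KO library lay above every WT library, and the difference was 0.25 log2 units. No test was made of this difference, because WT 2 was set aside after its values had been seen.

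**Figure D3:**
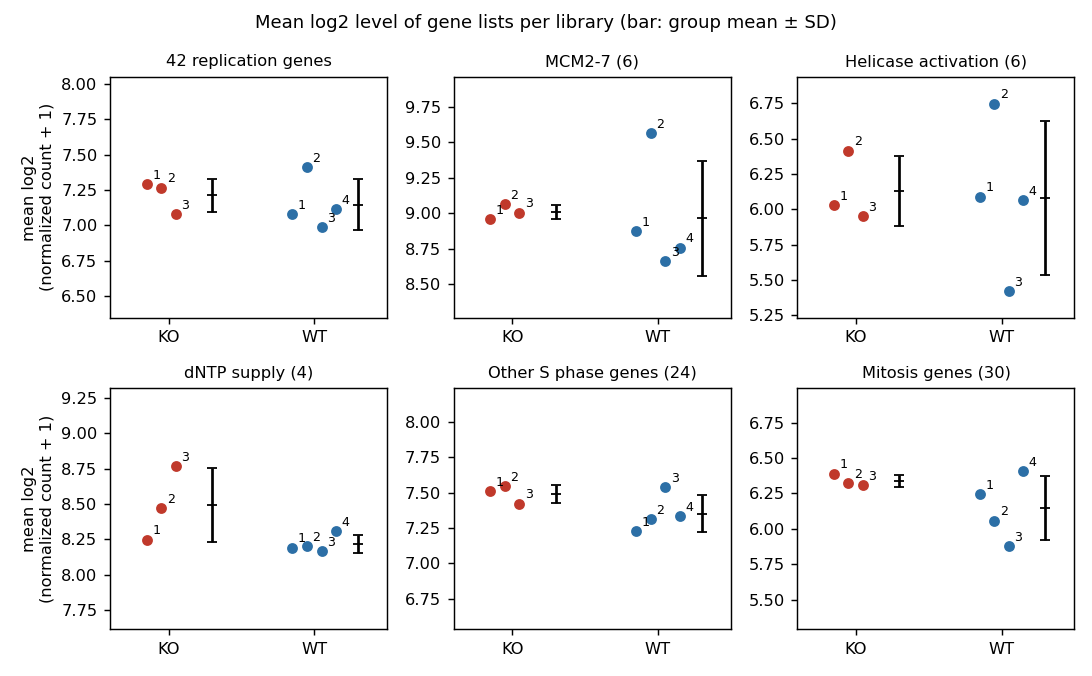
Mean log2 level (normalized count + 1, y axis, a different offset in each panel) of 6 gene lists in each library, KO in red left of WT in blue, with replicate numbers beside the points and the group mean ± SD as a bar. The KO libraries spread from 8.25 to 8.77 for nucleotide supply (dNTP supply in the panel), and WT 2 lies above all others for MCM2-7 at 9.56 and for helicase activation at 6.75.

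Genes of helicase activation showed the same high position of WT 2. Gins2, a subunit of the GINS complex, had 288, 173 and 136 normalized counts in KO, against 248, 435, 311 and 183 in WT. KO 2 and KO 3 lay below all WT libraries and KO 1 lay inside the WT range. The log2 fold change was -0.56 (SE 0.34, 95% interval -1.30 to 0.17), and it was -0.12 without both WT 2 and KO 3. Gins4, another GINS subunit and the highest of the group per kb, had 287, 332 and 123 in KO, against 292, 523, 158 and 319 in WT (log2 fold change -0.38, SE 0.41). Its low value in KO 3 and its high value in WT 2 carried this estimate, which was 0.33 without both libraries. Of the remaining genes, Gins1, Gins3 and Mcm10 had fold changes of 1.03, 0.17 and 0.38, and Cdc45, the helicase cofactor, had -0.33 (33.5 ± 8.37 in KO and 45.6 ± 20.9 in WT). Without both WT 2 and KO 3, Cdc45 had -0.04 and Mcm10 had 0.69, and Mcm10 had -0.03 without KO 2. Gins1 averaged 39.4 ± 15.5 in KO and 26.2 ± 18.8 in WT, and its lowest value, in WT 3, rests on 2 reads (log2 fold change 0.19 without WT 3).

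Prim1 and Pold3, both among the polymerase genes, were the members whose groups did not overlap. Prim1, at chr10:128015168-128030037 (GRCm38, plus strand), encodes the catalytic subunit of primase, which makes the RNA primer. It had 64.5, 51.7 and 9.19 normalized counts in KO, against 85.8, 96.9, 109 and 112 in WT. The highest KO library lay below the lowest WT library. The means were 41.8 ± 29.0 in KO and 100.8 ± 11.8 in WT (SD, n = 3 and 4), and the log2 fold change was -1.63 (SE 0.57, 95% interval -2.86 to -0.39, unadjusted limma p = 0.0139, adjusted p = 1.00, exact permutation p = 0.0286). The KO 3 value rests on 5 reads, against 85 and 64 in the other KO libraries and 78 to 159 in WT. Without KO 3 the fold change was -0.78 and the unadjusted limma p 0.0495. For the permutation test, 3 against 4 libraries allow no smaller p. The groups overlapped for Prim2, the partner subunit of primase, with 129, 122 and 223 in KO and 209, 113, 222 and 169 in WT (log2 fold change -0.18, SE 0.33). Without both WT 2 and KO 3 the fold change was -0.66 for Prim2 and -0.80 for Prim1. The catalytic subunit of the polymerase that primase joins, Pola1, averaged 120.0 ± 52.7 in KO and 121 ± 70.5 in WT.

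Pold3, at chr7:100082111-100121565 (GRCm38, minus strand), encodes an accessory subunit of polymerase delta that binds Pcna. It had 342, 364 and 500.2 normalized counts in KO, against 215, 268, 187 and 307 in WT. Each KO library lay above all WT libraries, by a gap of 342 against 307 at the closest. The means were 402 ± 86.0 in KO and 244 ± 53.9 in WT (SD, n = 3 and 4), and the log2 fold change was 0.72 (SE 0.26, 95% interval 0.17 to 1.28, unadjusted limma p = 0.0149, adjusted p = 1.00, exact permutation p = 0.0286). Across the alternatives it ran from 0.55 to 0.84, and without KO 3 the unadjusted limma p was 0.0717. This gene was well covered, with 272 to 450 reads in KO and 165 to 437 in WT. The groups overlapped for its partners in polymerase delta. Pold2, the highest of the polymerase genes per kb, had 261, 263 and 202 in KO, against 204, 422, 179.8 and 174 in WT (log2 fold change 0.08, SE 0.32, and 0.50 without both WT 2 and KO 3). The catalytic subunit Pold1 averaged 118 ± 42.1 in KO and 129 ± 39.8 in WT. Pole, the catalytic subunit of polymerase epsilon, averaged 47.4 ± 16 in KO and 47.5 ± 24.8 in WT, and Pola2 averaged 159 ± 56.5 in KO and 170.0 ± 56.1 in WT.

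Of the clamp and its loader, Pcna, Rfc1 and Rfc2 had means that differed little between the groups. Rfc3 and Rfc4 varied more between libraries, from 70.1 to 203 and from 17.0 to 124 normalized counts. Pcna, at chr2:132249162-132253314 on the minus strand, had 979, 1205 and 1410.4 normalized counts in KO, against 1129.7, 1202, 1012 and 1037 in WT. The KO libraries spanned the WT range on both sides, with a log2 fold change of 0.12 (SE 0.19). Rfc1 and Rfc2, the large subunit and a small subunit of the loader, had near-equal means, with 389 ± 14.3 and 677 ± 58.1 in KO and 385 ± 66.0 and 677 ± 129 in WT. Their 95% intervals were -0.45 to 0.51 for Rfc1 and -0.43 to 0.46 for Rfc2. Rfc5 had 204, 263 and 151 in KO, against 272, 251, 249.9 and 159.5 in WT (log2 fold change -0.18, SE 0.29). Rfc3 had a fold change of -0.21 (0.08 without both WT 2 and KO 3). Rfc4 had one of 0.27, with under 20 reads in KO 3 and WT 3. The Rfc4 estimate was -0.30 without WT 3, 0.78 without KO 3 and 0.93 without both WT 2 and KO 3.

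Fen1, the nuclease that trims the flap of each Okazaki fragment, had 232, 186 and 195 normalized counts in KO, against 173, 433, 261 and 138 in WT. The KO libraries lay inside the WT range, which WT 2 widened (log2 fold change -0.16, SE 0.36, and 0.17 without both WT 2 and KO 3). Lig1, which seals the nick, averaged 205 ± 57.9 in KO and 232 ± 79.2 in WT.

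All 4 genes of nucleotide supply had estimates above 0, and none passed the test. Tk1, the thymidine kinase that salvages thymidine in S phase, had 220.1, 172 and 209.6 normalized counts in KO, against 166, 119.5, 195 and 139.9 in WT. KO 1 and KO 3 exceeded all WT libraries and KO 2 did not (log2 fold change 0.39, SE 0.28, 95% interval -0.21 to 0.99, exact permutation p = 0.114). Rrm2, the regulated subunit of ribonucleotide reductase, had 209, 367 and 423 in KO, against 237, 302, 162 and 285 in WT (log2 fold change 0.41, SE 0.31, and 0.21 without KO 3). Tyms, which makes thymidylate, averaged 462 ± 108 in KO and 387 ± 63.2 in WT (log2 fold change 0.24, and 0.10 without KO 3). Rrm1, the large subunit of ribonucleotide reductase, had 537, 496 and 736 in KO, against 524, 625, 454 and 614 in WT (log2 fold change 0.08, SE 0.22). KO 3 was the highest library in 3 of the 4 genes. The mean log2 level of the 4 genes was 8.25, 8.47 and 8.77 in KO and 8.19, 8.20, 8.16 and 8.31 in WT, so that KO 1 lay inside the WT range and the other KO libraries above it.

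Chromatin and G1/S genes showed no separation of the groups. Chaf1b, the middle subunit of CAF-1, which places histones behind the fork, had 197, 138 and 156 normalized counts in KO, against 116, 170.2, 147 and 74.5 in WT (log2 fold change 0.42, SE 0.34, 95% interval -0.31 to 1.14, and 0.19 without WT 4). Uhrf1, which carries DNA methylation through replication, averaged 93.3 ± 33.2 in KO and 115 ± 86.8 in WT, with the highest value, 244, in WT 2. Ccne1 and Ccne2 encode cyclins E1 and E2, which activate Cdk2 at the start of S phase. Ccne1 had 143, 88.9 and 116 in KO, against 69.3, 156, 163 and 96.3 in WT (log2 fold change -0.01, SE 0.37). Ccne2 had 69.8, 69.5 and 105 in KO, against 52.8, 32.6, 82.6 and 109 in WT (log2 fold change 0.34, SE 0.45, and 0.03 without WT 2). E2f1, an activator of the genes described here, was low, with 16.7 ± 11.3 in KO and 14.3 ± 10.8 in WT, and a 95% interval of -1.56 to 2.11 for its log2 fold change.

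**Figure D4:**
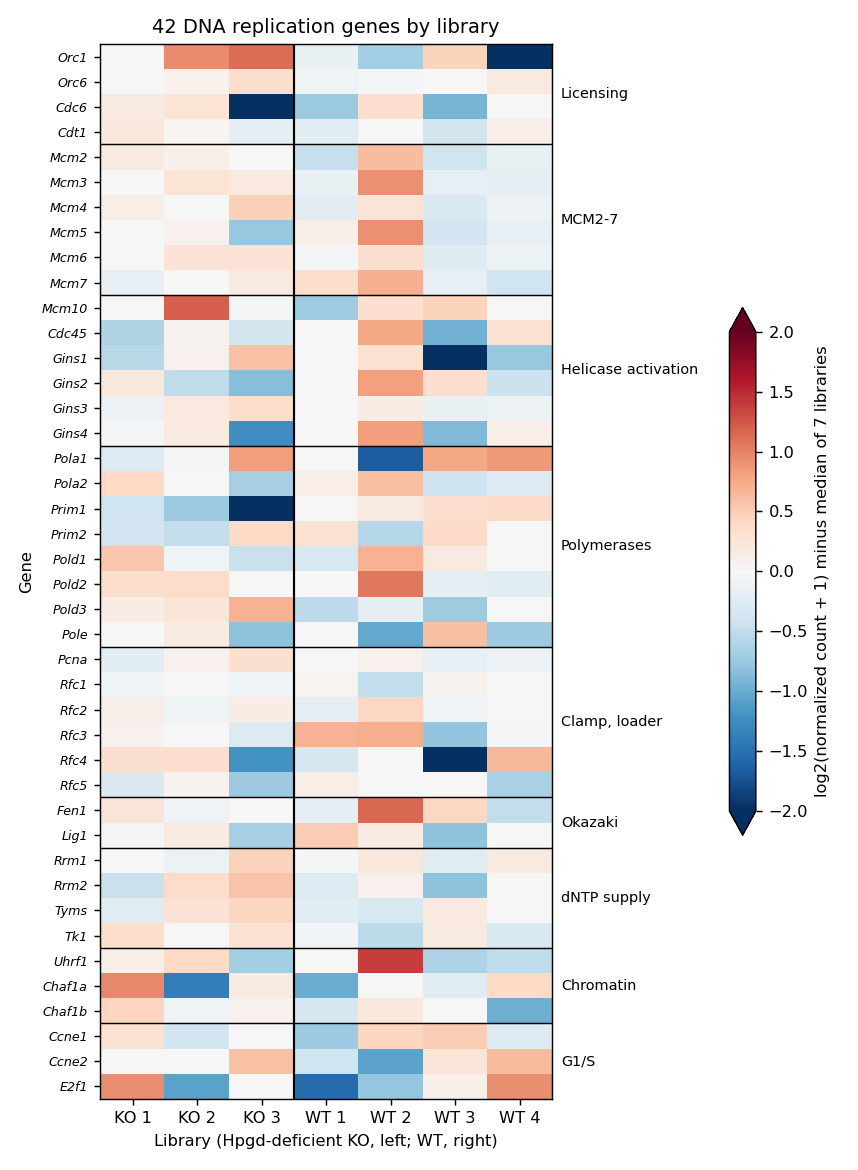
Log2(normalized count + 1) of each of the 42 genes in each library minus the gene's median of the 7 libraries (colour, red above and blue below, clipped at -2 and 2), KO left of WT, grouped by role down the page. The WT 2 column is red through most MCM2-7 and GINS rows, and the darkest blue cells are Cdc6 and Prim1 in KO 3, Orc1 in WT 4, and Gins1 and Rfc4 in WT 3.

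Single libraries stood out within the groups, as the colour map of deviations shows. KO 3 was the highest library in 11 of the 42 genes (26.2%, beside 21.0% of all tested genes) and WT 2 in 16 (38.1%, beside 29.2%). KO 3 was the lowest in 9 (21.4%, beside 20.7%) and WT 3 in 12 (28.6%, beside 19.0%). The KO libraries lay above the median of the 7 libraries in 20, 23 and 20 genes, and the WT libraries in 8, 28, 15 and 12. Of all tested genes, 40.5, 40.0 and 45.2% lay above it in the KO libraries and 41.8, 48.0, 43.0 and 41.5% in the WT libraries. WT 2 lay above the median of the 7 libraries in each length class of these genes. Its median deviations were 0.19, 0.24 and 0.16 log2 units for the 16 short, 18 middle and 8 long ones. For all tested genes of these classes, the medians in WT 2 were 0.30, 0.0 and -0.29. The part of transcript length was not tested. The median SD of log2 values within a group was 0.35 in KO and 0.52 in WT for the 42 genes, beside 0.32 in KO and 0.42 in WT for all tested genes. Without both WT 2 and KO 3, 32 of the 42 genes had an estimate above 0 and 10 below (beside 51.8% above 0 of all 11840 genes tested in that setting), with a median log2 fold change of 0.17 beside 0.01 for all tested genes. None of the 42 passed in that setting, and an unadjusted p under 0.05 was found for 4, beside 3.35% of all genes. These were Mcm2 (log2 fold change 0.48) and Pold3 (0.61), higher in KO, and Prim1 (-0.80) and Prim2 (-0.66), lower in KO. That leaves 2 KO and 3 WT libraries. Both libraries were set aside after their values had been seen, so the counts and p-values of this setting are descriptive only. Leaving out WT 2 by itself raises the estimates of the 16 genes in which it was the highest library.

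Genes of the same pathways outside the 42 gave the same count of 0 passing in every list, here with adjusted p under 0.05 by limma. Of 34 other replication genes, 32 were tested, with 14 estimates above 0, 18 below and a median of -0.04. Among them Cdc7, the kinase that fires origins by phosphorylating MCM proteins, had 69.8, 88.9 and 40.5 normalized counts in KO, against 123, 96.0, 109 and 163 in WT. The groups did not overlap, and the log2 fold change was -0.92 (SE 0.37, unadjusted limma p = 0.0283, exact permutation p = 0.0571). Pole3, a histone-fold subunit of polymerase epsilon, had 158, 222 and 195 in KO, against 129.8, 157, 147 and 149.7 in WT, again without overlap (log2 fold change 0.38). Of 24 other S phase genes, 16 had an estimate above 0 and 8 below, with a median of 0.17. Hells, a chromatin remodeller of dividing cells, had 155, 171 and 175 in KO, against 101.2, 52.5, 162 and 153 in WT (log2 fold change 0.63, and 0.30 without WT 2). Asf1a, a histone chaperone, had 304, 399 and 441 in KO, against 235, 241, 359 and 326 in WT (log2 fold change 0.40). Brca1, which protects forks and repairs breaks, was low, with 21.2, 17.8 and 25.7 in KO, against 16.5, 0, 15.8 and 10.5 in WT, without overlap.

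Regulators upstream of the 42 genes did not pass either. Of 12 E2F, DP and pocket protein genes, 7 had an estimate above 0 and 5 below, with a median of 0.03. Rbl2, the pocket protein p130 of resting cells, had 2659, 2306 and 2574 normalized counts in KO, against 2165, 2132, 2133 and 2159.9 in WT, without overlap (log2 fold change 0.22, exact permutation p = 0.0286). No gene of this list had an unadjusted limma p below 0.0824. Rb1, the retinoblastoma protein gene, had 446, 507 and 765 in KO, against 399, 217, 567 and 520.1 in WT. E2f8, a repressor among E2F proteins, had 4.55, 12.9 and 47.8 in KO, against 4.40, 4.53, 3.39 and 0 in WT, and KO 1 lay just above the WT libraries. Its log2 fold change was 2.2, and 1.62 without WT 4. Without KO 3, E2f8 fell below the filter of 10 and was not tested, so its place among the 7 rests on that library. Of 11 tested genes of D cyclins, their kinases and kinase inhibitors, 5 had an estimate above 0 and 6 below, with a median of -0.17. Ccnd3, the cyclin D3 gene, had 1884, 1096 and 1135 in KO, against 1485, 1849, 1290.5 and 1450.0 in WT.

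Mitosis and spindle genes are the next stage of the cycle. Of 30 such genes, 22 had an estimate above 0 and 8 below, with a median of 0.39, beside 0.08 for the 42 replication genes. KO lay above WT without overlap in 4 of them, Mki67, Top2a and, named after their values were seen, Incenp and Mad2l1, beside 1.71% of all tested genes. Over this and the other pathway lists the groups did not overlap in 8 genes higher and 1 lower in KO, of 109 tested. Of all tested genes, 1.71% were higher and 1.93% lower without overlap. Brca1 and E2f8 are among the 8, both were low in WT, and E2f8 passed the filter only with KO 3 included. The mean log2 level of the mitosis list was 6.39, 6.32 and 6.31 in KO and 6.25, 6.06, 5.88 and 6.41 in WT. Mki67, the proliferation marker Ki-67, had 833, 687 and 725 normalized counts in KO, against 601, 124, 581 and 656 in WT, without overlap (log2 fold change 0.86, and 0.29 without WT 2, SE 0.46 with all libraries, unadjusted limma p = 0.0879, exact permutation p = 0.0571). WT 2, which had the highest mean level of the replication genes, had by far the lowest Mki67 value. Long genes at large also lay low in WT 2, at a median of -0.29 log2 units. The part of transcript length in the Mki67 value was not tested. Top2a, the topoisomerase that separates sister chromatids, had 725, 615 and 577 in KO, against 569.8, 464, 383 and 491 in WT, again without overlap (log2 fold change 0.43, SE 0.21). Anln, a scaffold of the cleavage furrow, lay the other way, with 15.2, 20.2 and 22.1 in KO, against 69.3, 46.2, 18.1 and 57.6 in WT. The E2F motif was in 1 of 26 mitosis genes with a promoter window (3.85%). The difference between the 2 lists was not tested.

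Markers of other cell types were measured beside these genes, and their part in the results was not tested. Erythroid markers, led by Hba-a2 and Hbb-b1, summed to 77.4 to 239 normalized counts in KO and 642 to 2809 in WT, without overlap, with Slc4a1 not listed. The erythroid gene Hba-a1, lower in KO, had the smallest unadjusted limma p of all tested genes (2.7e-05, adjusted p = 0.189). CD8 T cell markers, led by Nkg7 and Cd8b1, summed to 2376 to 2683 in KO and 2010 to 5601 in WT, with the highest sum in WT 2, and Cd8a was between 0 and 16.5 in all libraries. B cell markers, led by Cd79b and Cd22, summed to 331 to 446 in KO and 337 to 814 in WT, again highest in WT 2, with Pax5 not listed. Plasma cell markers, led by Xbp1 and Irf4, which activated Treg cells also express, summed to 1423 to 2412 in KO and 1355 to 2262 in WT. Myeloid markers, led by Lyz2 and Csf1r, summed to 687 to 2303 in KO and 359.7 to 1586 in WT. Stromal markers, led by Pecam1 and Col1a1, summed to 312 to 431 in KO and 246 to 467 in WT. The 8 Treg markers summed to 38239 to 41777 in KO and 35492 to 42671 in WT.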

How the data were processed

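The genome build mm10 is named in the submitters' processing notes, which also list DESeq2 (no version), kallisto 0.44, Partek 6.6, CASAVA 1.8 and R 3.3.1, without saying what each did. Per the labels' protocols, 10 ng of RNA per sample went through SmartSeq2, which has no molecular identifiers or strand information, and a NextSeq 500. The deposited values are a normalized signal per gene and library with an offset of 1. After subtraction of 1, 100% of values were a whole number of reads times a constant of the library (tolerance 0.01 of a read), and the text calls the difference the normalized count. Because the deposited values are not themselves counts, the main fit was not a count model, and voom on recovered reads was an alternative.

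The log2 of the normalized count plus 1 was modelled per gene in limma 3.58.1 (R 4.3.3) over all 7 libraries, with a trended prior and no covariate. The test took in genes averaging 10 or more normalized counts, and p-values were adjusted over all 11787 of them at 0.05. Fold changes on this scale understate the change of low genes. Exact permutation tests of single genes were two-sided over all 35 assignments of 7 libraries to groups of 3 and 4, unadjusted. Lists are described by counts and medians without a test. The fit was tested on simulated data with known changes. These held no outlying library, so they do not show how the fit behaves with libraries such as WT 2 and KO 3. The members and lists were chosen with earlier results of these data known. Values per library are given for the members whose groups did not overlap and, in each role, for the one with the smallest p and the one with the highest level per kb, and in each other pathway list the text takes genes from the 3 with the smallest p. Cdc6, Gins1, Cdt1, Uhrf1, Prim2, Rrm2 and other members were named outside this rule, after their values were seen, so that each role is complete. GENCODE M21 on GRCm38, the same assembly as mm10, gave exon lengths and gene positions. The alternatives changed the pseudocount, scaling, filter or prior, used array weights, voom on recovered reads or a replicate block, or left out 1 library at a time or both WT 2 and KO 3. No 2 libraries agreed within sampling noise. Reads amplified without identifiers are not independent molecules.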

Additional observations from a re-analysis of the deposited data

Results flagged for a closer look

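In 7 of 86 series of values examined, 1 WT library lay far from the other WT libraries, by a gap that took up more of the group's whole range than Dixon's 95% critical value for 4 samples. Chance flags about 1 in 20 such groups, and 6 of the 7 were in WT 2. Mcm3, a helicase subunit, had 328 to 395 normalized counts in KO, and in WT it had 617 in WT 2 and 288 to 298 in the others (gap 0.970 of the range). Pold2 had 422 in WT 2 and 174 to 204 in the others (0.882). Rfc1 was low in WT 2, with 287 against 408 to 426 (0.866). The mean log2 level of the 3 chromatin genes was 6.49 in WT 2 and 5.51 to 5.67 in the other WT libraries (0.839), and 5.60 to 6.46 in KO. Outside the 42 genes, Chtf8, a subunit of the alternative clamp loader, had 808 in WT 2 and 312 to 386 in the others (0.851), and Mki67 had 124 in WT 2 and 581 to 656 in the others (0.860). The myeloid gene Lyz2 had 47.5 in WT 3 and 962 to 1090.1 in the others (0.877).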

How the results depend on the processing

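None of the 42 genes passed under any of 18 alternatives. The number of all genes passing was 0, but 4 with array weights, 3 with the replicate block and 4 without both WT 2 and KO 3. The erythroid markers Hba-a1, Hba-a2 and Hbb-b1, lower in KO, each passed in at least 1 of these settings. The block gave 23 of the 42 genes an estimate above 0, and same-numbered libraries did not deviate together (r = 0.00814, -0.0357 and 0.0944), so the numbers were not read as pairs. The count of estimates above 0 ran from 20 (of 34 tested at a filter of 50) to 32, their median from 0.02 to 0.17 and the difference in mean log2 level from 0.0044 to 0.22. Of the 42 genes, 16 kept the sign of their estimate under all alternatives that tested them, Prim1 and Pold3 among them, and 26 did not, 16 of these without both WT 2 and KO 3 and 15 with array weights. Among the genes named by rule, signs turned, with log2 fold changes that follow, without both WT 2 and KO 3 for Orc6 (-0.0044), Gins4 (0.33), Rfc5 (0.067), Fen1 (0.17), Rrm1 (-0.029), Ccne2 (-0.16), Ccne1 (0.13), Chtf8 (0.0054), Rb1 (-0.042), Cdkn2d (0.033), Ccnd3 (0.032) and Foxp3 (-0.076). They turned with array weights for Gins4 (0.024), Rfc5 (0.11), Fen1 (0.16), Rrm1 (-0.063), Ccne2 (-0.048) and Ccne1 (0.12), with scaling to library totals (0.0017) and voom (0.0044) for Ccne1, and with the block for Pold2 (-0.050). Leaving out 1 library at a time gave -0.68 to 0.058 for Gins4, -0.050 to 0.37 for Pold2, -0.38 to 0.022 for Rfc5, -0.0087 to 0.25 for Pcna, -0.40 to 0.14 for Fen1, -0.091 to 0.19 for Rrm1 and -0.24 to 0.17 for Ccne1. The cause was not tested. Depth limits Orc1, Cdc6, Mcm10, Cdc45, Gins1, Prim1, Pole, Rfc4, Chaf1a and E2f1 most, each with under 20 reads in at least 1 library.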
